A study of Mus musculus with 2 samples.

Results

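Newly formed somite cells were chosen in the E9.5 library by a rule on measured UMIs, that is, on unique molecular identifiers, the random tags with which PCR copies of one transcript are counted once. A cell was a member if it held at least 3 summed UMIs of Pcdh8, Ripply2, Cer1 and Dll3, at least 1 UMI of Pax3 or of Meox1, and none of Sox2 or Myf5. The rule found 94 of the 9851 E9.5 cells kept (0.954%, exact 95% binomial interval 0.772% to 1.17%), of 19446 cells kept at both stages. The cells came from inter-limb somites of wild-type C57BL/6 mouse embryos at 9.5 or 11.5 days post coitum. Somites of 3 embryos were pooled at each stage, dissociated with trypsin and captured in 1 droplet library, so no cell can be assigned to an embryo, and what 1 library shows has no replicate check. The members were compared with the other 4424 E9.5 cells that held Meox1 and no Sox2, called the other Meox1 cells below. Members held 1495047 UMIs in all, with a lowest, median and highest of 3288, 14211.5 and 55806 per cell, and the other Meox1 cells held 64245416, with a median of 12830. A level is the share that a gene took of the pooled UMIs of a group of cells, scaled to 1000000 UMIs and abbreviated as UPM, and all intervals cover counting error only. A total of 30 barcodes occurred in both libraries, of which 1 was the barcode of a member.

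Somites are blocks of mesoderm that separate in a regular rhythm from the presomitic mesoderm at the tail end of the embryo. In the presomitic mesoderm, genes of the Notch, Fgf and Wnt pathways switch on and off in waves, the segmentation clock, with Hes7 as a central repressor and Lfng as a modifier of Notch. At the front of this tissue Tbx6 and Notch activity switch on Mesp2, which positions the next border and switches on Ripply2, and Ripply2 in turn removes Tbx6 protein. Pcdh8, a protocadherin once named paraxial protocadherin, Dll3, a Notch ligand family member, and Cer1, a secreted antagonist, are known from this border region and from the somites that have just formed. A young somite is an epithelial ball that carries Tcf15, Meox1 and Pax3. It later gives rise to sclerotome, the source of vertebrae and ribs, which carries Pax1, and to dermomyotome, the source of muscle and dermis.

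Promoters of 4 genes are printed first, to show the sequence at genes of the segmentation clock and the segment border. Of these, Ripply2 was used by the rule, Lfng and Mesp2 were too low to be counted, and Hes7 was counted as higher. Each is the RefSeq window on GRCm38.p6 from 250 bases before to 50 bases after a transcription start site, on the plus strand, and is written from 5′ to 3′. Hes7 lies at chr11:69120203-69120502, Lfng at chr5:140607091-140607390, Mesp2 at chr7:79810477-79810776 and Ripply2 at chr9:87015287-87015586. Capitals mark GTGGGAA or its reverse complement TTCCCAC, letters bound by Rbpj, the DNA-binding partner of Notch, and AGGTGT or ACACCT, the core letters of T-box factors such as Tbx6.
Hes7: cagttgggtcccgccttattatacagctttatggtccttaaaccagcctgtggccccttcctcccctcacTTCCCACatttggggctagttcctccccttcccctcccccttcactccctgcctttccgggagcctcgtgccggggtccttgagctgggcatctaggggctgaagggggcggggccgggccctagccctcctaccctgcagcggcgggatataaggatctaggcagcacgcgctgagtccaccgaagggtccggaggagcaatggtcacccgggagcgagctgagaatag
Lfng: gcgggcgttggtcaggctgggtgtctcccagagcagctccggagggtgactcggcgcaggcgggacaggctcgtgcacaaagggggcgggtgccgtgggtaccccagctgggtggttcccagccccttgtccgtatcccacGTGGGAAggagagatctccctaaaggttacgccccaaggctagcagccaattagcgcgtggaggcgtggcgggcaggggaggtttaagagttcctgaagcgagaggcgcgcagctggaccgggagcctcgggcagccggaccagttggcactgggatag
Mesp2: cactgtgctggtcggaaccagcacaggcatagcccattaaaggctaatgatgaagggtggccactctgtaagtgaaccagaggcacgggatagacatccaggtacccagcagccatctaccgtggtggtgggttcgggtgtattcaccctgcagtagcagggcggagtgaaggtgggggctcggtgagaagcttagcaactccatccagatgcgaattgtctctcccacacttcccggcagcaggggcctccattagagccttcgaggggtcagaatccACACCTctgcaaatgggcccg
Ripply2: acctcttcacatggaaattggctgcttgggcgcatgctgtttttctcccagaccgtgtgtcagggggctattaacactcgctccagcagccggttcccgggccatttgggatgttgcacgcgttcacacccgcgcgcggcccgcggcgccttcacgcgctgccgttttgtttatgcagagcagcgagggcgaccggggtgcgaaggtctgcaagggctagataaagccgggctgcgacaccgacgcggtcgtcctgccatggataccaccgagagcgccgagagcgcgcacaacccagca
The Rbpj letters stood 180 bases before the start site of Hes7 and 109 bases before that of Lfng, and the T-box letters 30 bases after that of Mesp2. Neither motif was present in the window of Ripply2. The Rbpj letters were found in 6.38% of all 32851 promoter windows and the T-box letters in 13.7%. Of the 19 genes in the segmentation clock list, 13 had a window, and 5 of these (Hes5, Hes7, Hey2, Lfng and Sp5) held the Rbpj letters. The list of segment border and polarity genes had windows for 12 of 13 genes, of which Mesp1 and Mesp2 held the T-box letters and Tbx18 the Rbpj letters. In the Notch pathway list, 2 of 22 genes with a window (Aph1a and Psen2) held the Rbpj letters, 7.14% of its windows and close to the 6.38% of all windows. The T-box letters were found in 1 clock gene, Nkd1, and in 3 genes of the Notch pathway list (Dlk1, Rbpj and Rfng), 10.7% of its windows. A match describes letters and does not show that a factor binds there.

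The genes of the rule are given as a description of how the members were selected. Pcdh8 was present in 75 of 94 members, with a median of 2.5 and a highest value of 23 UMIs per cell. Dll3 was present in 76, Ripply2 in 42 and Cer1 in 34 members. Ripply2 was the most uneven of the 4, with a median of 0 and a highest value of 40 UMIs, and the 10 cells with the most held 64.0% of its 436 UMIs. The corresponding share of the 10 highest cells was 28.6% for Dll3. In endothelial-marked cells of the same library, chosen by at least 3 summed UMIs of 5 endothelial genes and sequenced to a median of 14824 UMIs, 2.23% of cells held Pcdh8, 0.557% Ripply2, 1.11% Cer1 and 3.34% Dll3. Pcdh8 was also found in 20.6% of neural-marked cells (at least 3 summed UMIs of Sox1, Sox3 and Pax6, median 13668 UMIs). The summed markers ran from 3 UMIs in 22 cells through a median of 6 to 61 in the highest cell. Meox1 was present in 89 members and Pax3 in 81.

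**Figure D1:**
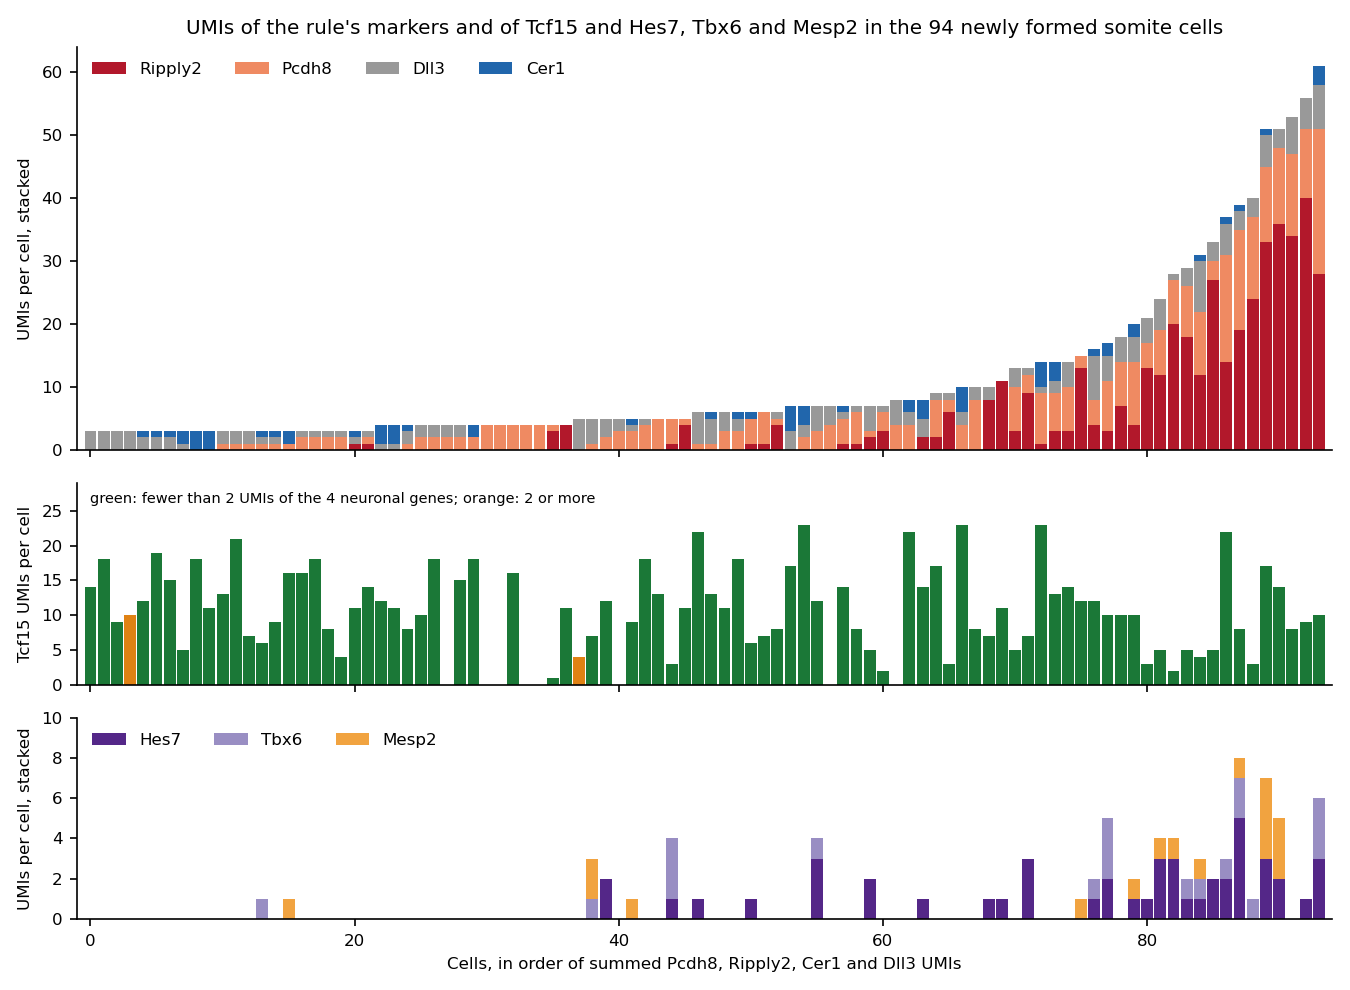
Each bar is 1 of the 94 newly formed somite cells, in order of its summed Pcdh8, Ripply2, Cer1 and Dll3 UMIs (upper panel, UMIs per cell, stacked), with the Tcf15 UMIs of the same cells (middle panel) and their stacked Hes7, Tbx6 and Mesp2 UMIs (lower panel). The tallest bars hold many Ripply2 and Pcdh8 UMIs, Tcf15 occurs along the whole order, and Hes7, Tbx6 and Mesp2 gather at the right. Of the 9 cells with at least 2 UMIs of the 4 neuronal genes, 7 have no Tcf15 and show no bar.

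At the edge of the rule, 22 members held exactly 3 marker UMIs. The Tcf15 level was 868 UPM in these 22 cells and 492 UPM in the 41 cells that met the rule but for a marker sum of 2. Ifitm1 was at 754 UPM just inside the threshold and 407 UPM just outside it, and Notch1 at 282 and 133 UPM. The cells just outside held intermediate levels, so the rule placed a limit within a range of values.

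Tcf15, a bHLH factor needed for the epithelial somite, was not used by the rule and served to check the label. It was detected in 86 of 94 members (91.5%, exact 95% interval 83.9% to 96.3%), against 39.8% of endothelial-marked cells and 13.8% of neural-marked cells. Its UMIs per member ran from 0 through a median of 10 to 23. The level was 651 UPM in members and 238 UPM in the other Meox1 cells, a log2 ratio of 1.45 (95% interval 1.35 to 1.54). Of the 94 members, 9 held at least 2 summed UMIs of the neuronal genes Neurog2, Tubb3, Elavl3 and Dcx, and their values go against the label. In these 9, Tcf15 was at 0 in 7 and Meox1 at 0 in 5, and none held Ripply2 or Cer1. A further member held 1761 of the 1779 Hbb-y UMIs, and its 55806 UMIs made it the deepest member. The 9 neuronal cells and the globin-rich cell met the rule and stay in all values below unless stated. Of the other 84 members, 83 held Tcf15, and values without the 10 cells are given where they change a statement. Another 2 members were also endothelial-marked, with 33 and 7 UMIs of the endothelial list, and both held Tcf15 and Meox1. Scrublet called the one with 33 a doublet.

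Between members and the other Meox1 cells, 7457 genes had a mean level of at least 10 UPM and were counted. Of these, 165 were at least 2-fold higher in members (2.21%) and 153 at least 2-fold lower (2.05%), and the median log2 ratio of all of them was 0.03. Without endothelial-marked cells in either class, an alternative chosen after seeing the data, the numbers were 174 and 154. Pax3, Pcdh8, Ripply2, Cer1 and Dll3, which the rule used, are among the higher genes. A large share of the other Meox1 cells were more mature, since 1866 held Pax1 or Pax9 and 447 held Myf5, which members could not hold. Against only the 994 other Meox1 cells with Pax3 and without Myf5, 177 of 7390 genes were at least 2-fold higher (2.4%) and 124 lower (1.68%).

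**Figure D2:**
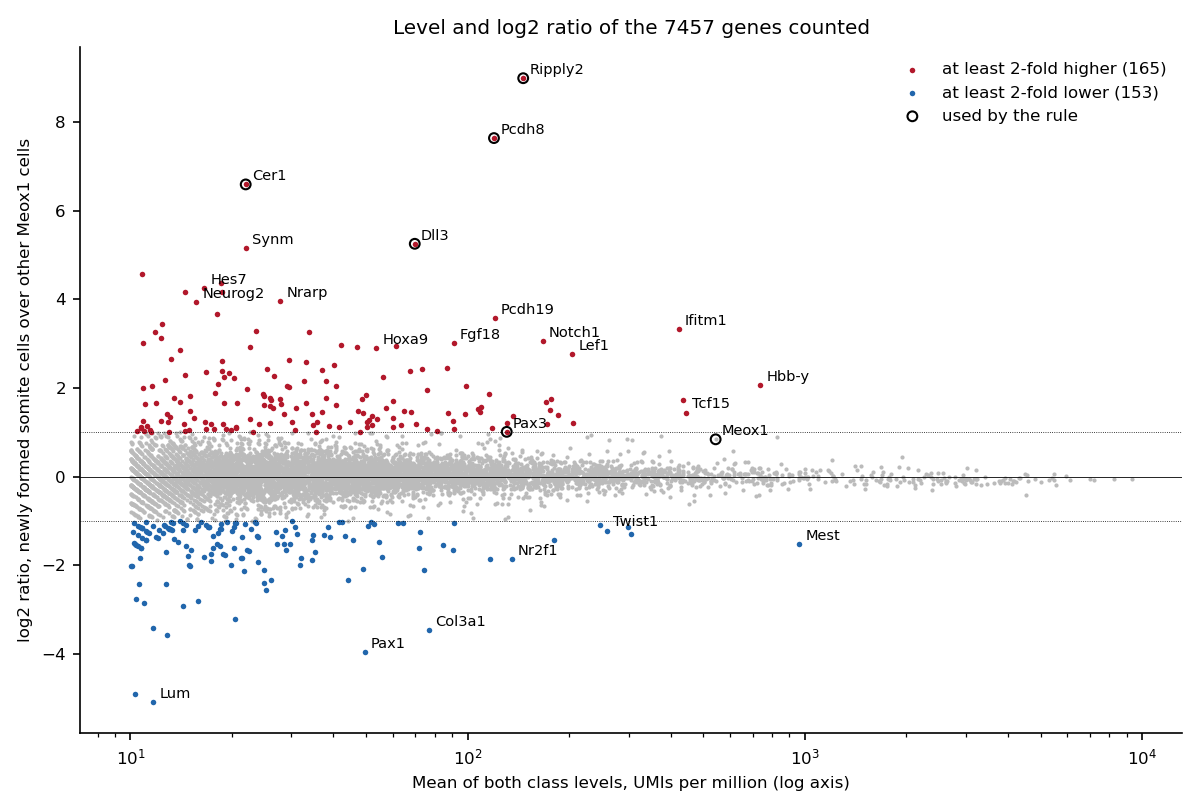
Each point is 1 of the 7457 genes counted, placed by the mean of its levels in both classes (UPM, log axis) and by its log2 ratio of newly formed somite cells over the other Meox1 cells, with dotted lines at 2-fold. The 165 higher genes are red, the 153 lower genes blue, and genes used by the rule are circled. Most points lie near 0, and Ifitm1, Notch1 and Lef1 stand out among the higher genes with large UMI counts.

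The genes other than those of the rule were ranked by the bound of the interval nearest to 0, and 15 are named in each direction. Ifitm1, an interferon-induced transmembrane protein of early mesoderm and germ cells, had 0, 11 and 36 UMIs as lowest, median and highest per member and was found in 85 of 94. It reached 769 UPM in members and 76.0 UPM in the other Meox1 cells, 10.1-fold higher (interval 9.47 to 10.8). Pcdh19, a protocadherin of the same family as Pcdh8, was present in 76 members with a median of 3 and a highest value of 13 UMIs. Its level was 222 against 18.5 UPM, 12.0-fold higher.

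Synm, which encodes the intermediate filament protein synemin, stood at 42.8 against 1.20 UPM, a log2 ratio of 5.16 (4.66 to 5.66), with UMIs in 37 members. Against the other Meox1 cells with Pax3 and without Myf5 its log2 ratio was 4.21 (3.61 to 4.83). Arl4d, a small GTPase, was 20.7-fold higher and Snap91, a clathrin assembly protein, 23.8-fold higher. Lrrtm3, Myocd, Ptprz1, 2610528A11Rik and Vwa2 completed this group with log2 ratios from 3.28 to 4.17. Myocd, myocardin, is a coactivator of smooth and heart muscle genes and was at 27.4 against 1.53 UPM. Neurog2, a proneural factor, also ranked here at 29.4 against 1.93 UPM, but it was detected in 7 members, 1 of which held 34.1% of its UMIs. Neurog2 was among the genes by which the neuronal cells were chosen. Its level of 0.784 UPM without these and the globin-rich cell therefore follows from that choice. Without the same cells Synm and Ifitm1, which had no part in the choice, stood at 49.4 and 883 UPM.

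Among the 11 segmentation clock genes counted, 4 were at least 2-fold higher (Hes7, Nrarp, Hey1 and Dusp4) and Snai2 was lower, with a median log2 ratio of 0.52 against 0.03 over all genes. Hes7, the oscillating repressor whose promoter is printed above, had a median of 0 and a highest value of 5 UMIs per cell. It was detected in 25 of 94 members (26.6%), in 2.37% of the other Meox1 cells and in 2.23% of endothelial-marked cells. The level was 31.4 against 1.65 UPM, 19.1-fold higher (13.2 to 27.1), and after thinning every cell to 5000 UMIs the shares were 15.1% and 0.904%. Nrarp, a Notch-induced feedback inhibitor, was at 52.2 against 3.33 UPM, 15.7-fold higher, but neural-marked cells held 47.7 UPM. Hey1, a Notch target, was at 40.1 against 11.6 UPM and Dusp4, a phosphatase of the Fgf pathway, at 24.1 against 10.6 UPM. Lfng, the glycosyltransferase that modifies Notch, fell short of the level needed to be counted and stood at 17.4 against 1.48 UPM, with UMIs in 19 members. Hes1 (log2 ratio -0.19), Axin2 (-0.03) and Nkd1 (0.25) were near 0, Axin2 and Nkd1 being Wnt feedback genes of the clock.

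Of the presomitic and tail bud list, 5 of 17 genes were counted and 3 of these (Hes7, Dll1 and Wnt5a) were at least 2-fold higher. Tbx6, the T-box factor of the presomitic mesoderm, had 19 UMIs in 12 members with at most 3 in a cell. That gave 12.7 UPM against 0.265 UPM in the other Meox1 cells, 48.0-fold higher (23.6 to 98.4). Members made up 12 of all 39 E9.5 cells kept that held Tbx6. Msgn1, Wnt3a, Cdx2, Evx1 and Fgf4, which mark the tail bud and the posterior presomitic mesoderm, had no UMI in members. For this class, 3 counts give 2.01 UPM. Msgn1 had none in any of the 9851 E9.5 cells kept. Other tail bud genes of the list were detected. Nkx1-2 had 12 UMIs in 7 members with at most 5 in a cell, at 8.03 against 1.35 UPM, and Cdx1 had 8 UMIs in 7 members, at 5.35 against 12.2 UPM. Cdx4 had 3 UMIs and T had 5, and Fgf8, a tail bud ligand, stood at 13.4 against 17.1 UPM.

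Segment border and polarity genes were higher in 4 of 8 counted cases, namely Fgf18, Epha4, Efnb2 and Foxc2, and Nrp1 was lower, with a median log2 ratio of 1.13. Epha4, an Eph receptor of the forming border, was present in 59 members at 120 against 31.1 UPM, a log2 ratio of 1.95 (1.73 to 2.17). Its partner ligand Efnb2 was at 78.3 against 21.7 UPM. The forkhead factor Foxc2, needed for somite formation, was at 260 against 92.1 UPM, and Foxc1 at 149.8 against 97.9 UPM. Mesp2, the border factor whose promoter is printed above, was too low to be counted, with 17 UMIs in 11 members and at most 4 in a cell. Its level of 11.4 UPM compared with 0.140 UPM in the other Meox1 cells, and members were 11 of the 31 kept cells that held it. Mesp1 had 17 UMIs in 14 members, at 11.4 against 0.296 UPM, and Ripply1 stood at 7.36 against 1.17 UPM.

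Within the Notch pathway, 2 receptors and the ligand Dll1 were higher, and most other counted genes lay within 2-fold. Notch1, the main receptor of segmentation, was found in 87 of 94 members with a lowest, median and highest of 0, 4 and 20 UMIs. Its level of 298 UPM was 8.33-fold that of the other Meox1 cells (7.51 to 9.22), and it exceeded the 96.2 UPM of endothelial-marked cells, which also use this receptor. Dll1, the activating ligand, was at 61.5 against 6.37 UPM and was also high in the 9 members with neuronal genes (153 UPM). Without the neuronal and globin-rich cells Dll1 stood at 52.5 UPM. Of 18 counted genes of the list, 3 were at least 2-fold higher (Notch1, Notch2 and Dll1) and 1 lower (Dlk1, an imprinted member of the ligand family), with a median log2 ratio of 0.39. Rbpj (log2 ratio 0.21), Maml1 (0.08), Mib1 (0.25) and Pofut1 (-0.02), which transmit or process the signal, lay within 2-fold.

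The Fgf list held 4 of 13 counted genes at least 2-fold higher and none lower. Fgf18, a ligand, had a median of 1 and a highest value of 12 UMIs per member, with UMIs in 68. It stood at 162 against 19.9 UPM, 8.12-fold higher (7.05 to 9.33). The receptors Fgfr1 (160 against 58.1 UPM) and Fgfr2 (42.1 against 18.0 UPM) and the phosphatase Dusp4 were the others. Fgf3, a further ligand, had 8 UMIs in 8 members, at 5.35 against 0.156 UPM.

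In the Wnt list, 2 of 22 counted genes were higher (Lef1 and Wnt5a) and 1 lower (Fzd4), and the median log2 ratio was 0.01. Lef1, a transcription factor that carries the Wnt signal, was present in 86 members with a median of 5 and a highest value of 21 UMIs. Its level was 357 against 52.4 UPM, a log2 ratio of 2.77 (2.63 to 2.90), while Tcf7, Tcf7l1 and Tcf7l2 of the same family had log2 ratios of -0.01, 0.36 and -0.03. Wnt6, a ligand of the surface ectoderm and of the epithelial somite, had no UMI in members and 10.96 UPM in the other Meox1 cells, at least 5.46-fold lower when members are set to the limit of 3 counts for the class. The retinoic acid list had 1 of 8 genes lower (Rdh10, which makes retinaldehyde) and none higher. Aldh1a2, the main retinoic acid synthase of somites, was at 74.2 against 131 UPM, but at 75.7 UPM in the other Meox1 cells with Pax3 and without Myf5.

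Bmp and Tgf-beta genes were lower in 2 of 13 counted cases, Id2 and Id3, and higher in none. Id3, an inhibitor of bHLH factors that Bmp signals induce, was at 178 against 434 UPM (log2 ratio -1.29, -1.47 to -1.11), with UMIs in 41 members and in 81.3% of the other Meox1 cells. Id2 was at 98.3 against 263 UPM, and Id1 at 88.3 against 170.2 UPM fell within 2-fold. The Bmp receptor gene Bmpr1a and the mediators Smad1 and Smad5 had log2 ratios between -0.09 and 0.11.

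Genes of early somites moved in both directions, with 3 of 11 counted genes at least 2-fold higher (Tcf15, Foxc2 and Cited1), 2 lower (Meox2 and Cdh11) and a median log2 ratio of 0.61. Cited1, a transcriptional coregulator, was at 159 against 38.5 UPM, 4.13-fold higher, with UMIs in 74 members. Meox2, the homeobox relative of Meox1, was at 40.8 against 83.6 UPM. Cdh11, a cadherin of mesenchyme, was at 24.7 against 86.8 UPM. Dact1, a modulator of Wnt signals, was just under 2-fold higher with a log2 ratio of 0.98. Without the neuronal and globin-rich cells it reached 1.07, and the list then had 5 higher genes.

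Sclerotome genes were the most uniform list in the other direction, with 6 of 7 counted genes at least 2-fold lower and a median log2 ratio of -1.51. Pax1, the factor that defines sclerotome, was found in 4 of 94 members (4.26%) and in 38.5% of the other Meox1 cells, against 6.13% of endothelial-marked cells. It stood at 6.02 against 93.1 UPM (log2 ratio -3.95, -5.08 to -3.02). Sox9 and Col2a1, a regulator and a matrix protein of cartilage, were at 35.5 against 108 UPM and at 24.7 against 66.5 UPM. Twist1 (156 against 361 UPM) and Nr2f1 (58.2 against 212 UPM) were also lower, and Ptch1, a Hedgehog receptor and target, had a log2 ratio of -0.39. The size depends on the comparison, because against the other Meox1 cells with Pax3 and without Myf5 only 3 sclerotome genes stayed at least 2-fold lower, and Ptch1 then had a log2 ratio of 0.23.

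Of the dermomyotome and myotome list, 8 of 18 genes were counted, 4 of them at least 2-fold lower (Itga6, Des, Ebf2 and Ebf3) and none higher. Since the rule excluded Myf5, myogenic genes could be lower through the choice of members. Sim1, a marker of the dermomyotome, was at 16.7 against 8.79 UPM, and Dmrt2, a regulator upstream of Myf5, at 23.4 against 29.7 UPM. Pax7 had 1 UMI and Myog none in members.

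**Figure D3:**
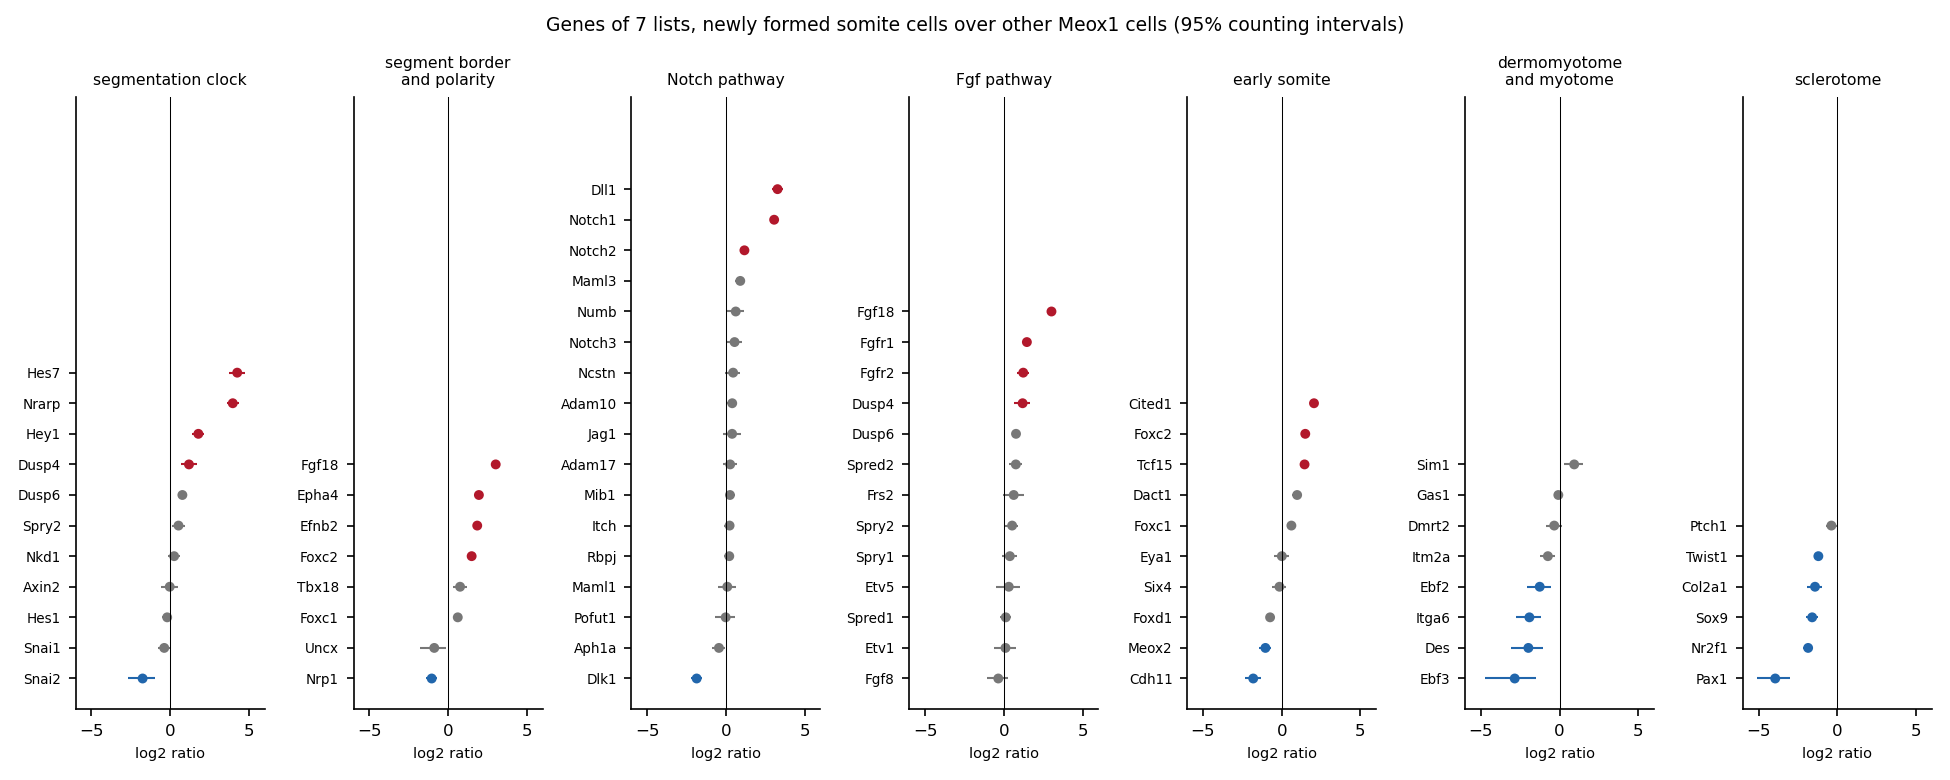
Points are log2 ratios of newly formed somite cells over the other Meox1 cells for counted genes of 7 lists, and lines are 95% counting intervals. Red genes are at least 2-fold higher, blue genes at least 2-fold lower and grey genes between. Hes7, Nrarp, Dll1, Notch1 and Fgf18 lie at the right of their lists, and the sclerotome genes shown lie at the left beyond 2-fold, except Ptch1.

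Pax1 ranked first among the lower genes, followed by Col3a1. Col3a1, a fibrillar collagen, was found in 6 members and in 56.8% of the other Meox1 cells, at 12.7 against 140 UPM (log2 ratio -3.47, -4.20 to -2.82). Col1a2 stood at 14.7 against 73.6 UPM and Col1a1 at 4.01 against 27.8 UPM. Lum, which encodes the matrix protein lumican, had 1 UMI in members and 22.6 UPM in the other Meox1 cells, a log2 ratio of -5.08 (-10.39 to -2.60). Pcolce, which helps to process collagen, was at 7.36 against 43.1 UPM. Saa1, a serum amyloid gene, also had 1 UMI in members, with a log2 ratio of -4.90 (-10.20 to -2.42). The others of this group were Flrt2, AI646519, Tagln, Sncaip, Eva1b, Zic1, Nr2f1 and Clmp, with log2 ratios from -3.56 to -1.86. Zic1, a zinc finger factor of the dorsal somite and neural tube, had 75.0% of its 12 UMIs in 1 member. Against the other Meox1 cells with Pax3 and without Myf5 the log2 ratios of this group were smaller in size. Pax1 was at -2.34 (-3.48 to -1.40) and Col3a1 at -1.73 (-2.47 to -1.08). Lum was at -1.93 (-7.27 to 0.62) and Tagln at -1.48 (-3.78 to 0.11), both with intervals that spanned no change.

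In the list of epithelial adhesion and matrix genes, 2 of 17 counted genes were higher (Fn1 and Pcdh19) and 2 lower (Cdh11 and the integrin gene Itga6). Fn1, fibronectin, on which somites form, was at 268 against 103 UPM with UMIs in 85 members. Cdh2, N-cadherin of the epithelial somite, was at 122 against 84.0 UPM and lay within 2-fold.

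Hox genes, whose order along the chromosome follows the order of their expression from head to tail, were higher in part. Of 39 Hox genes, 26 were counted, 10 were at least 2-fold higher and none lower, with a median log2 ratio of 0.55. The higher genes fell at both ends of the counted range of paralog numbers. In paralog group 1, Hoxb1 stood at 62.2 against 13.9 UPM and Hoxd1 at 74.9 against 9.53 UPM. In groups 7 to 9, 6 of 9 genes were higher, and the other 3 had log2 ratios above 0. Hoxa9 was present in 66 members (70.2%) and in 9.49% of the other Meox1 cells, at 94.3 against 12.6 UPM, 7.51-fold higher (6.23 to 8.99). Hoxc9 was at 68.2 against 12.0 UPM and Hoxd9 at 40.1 against 5.25 UPM. In groups 2 to 6, by contrast, Hoxd3 alone of 14 counted genes was higher, and the median log2 ratio was -0.12.

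Summed over groups 7 to 9, Hox UMIs made up 689 UPM in members, 289 UPM in the other Meox1 cells and 348 UPM in those with Pax3 and without Myf5. The summed level of groups 2 to 6 was 530.4 UPM in members and 522 UPM in the other Meox1 cells. Hoxc10 had 7 UMIs in 5 members, at 4.68 against 0.374 UPM, and Hoxd10 had 3, while groups 10 to 13 summed to 6.69 UPM. The position of a cell along the body was not recorded, so differences between classes in axial level and in maturity cannot be told apart.

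**Figure D4:**
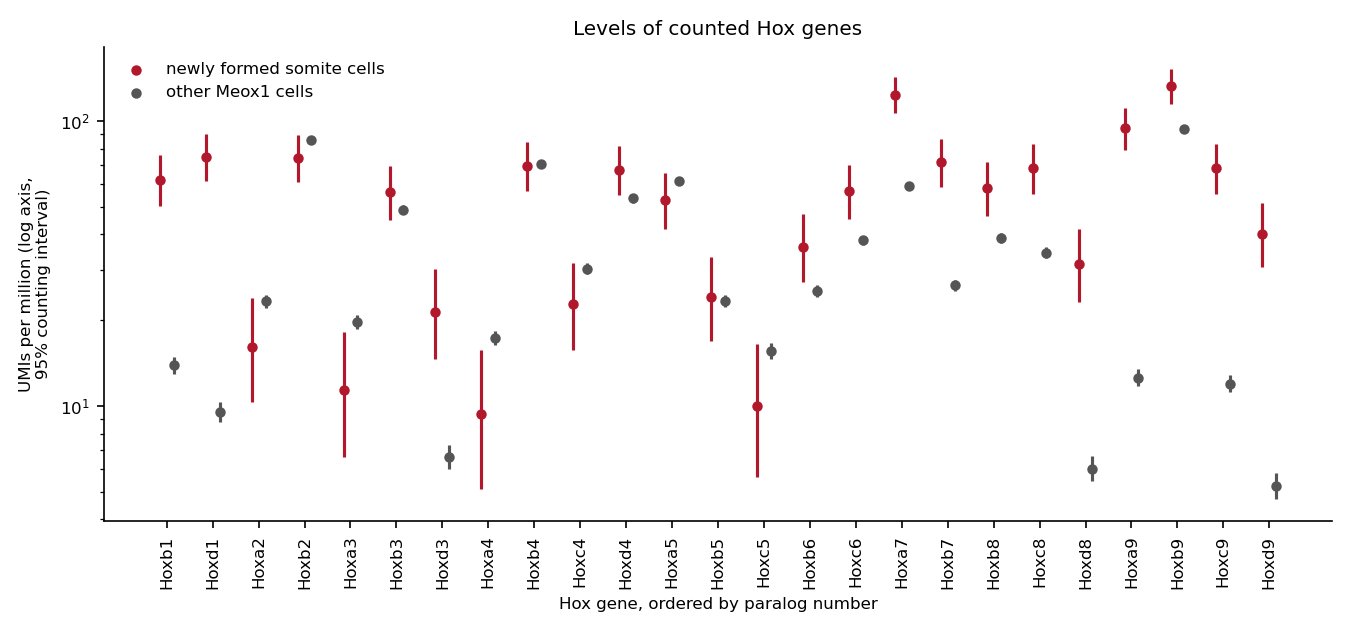
Levels of counted Hox genes in newly formed somite cells (red) and in the other Meox1 cells (grey) in UPM on a log axis, ordered by paralog number, with 95% counting intervals. The red points lie above the grey ones for Hoxb1 and Hoxd1 and in groups 7 to 9, and near or below them for most genes between.

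Among genes of growth, developmental timing and imprinting, 4 of 22 counted genes were at least 2-fold higher (Ifitm1, Sall1, Sall3 and Sall4) and 2 lower (Meg3 and Mest). Sall4, a zinc finger factor of pluripotent and early posterior cells, was at 165 against 55.0 UPM, with UMIs in 85 members. Mest, an imprinted gene expressed from the paternal copy, was at 498 against 1429 UPM (log2 ratio -1.52, -1.63 to -1.42), and Meg3, an imprinted RNA expressed from the maternal copy, at 187 against 410 UPM. Lin28a, a regulator of developmental timing, had a log2 ratio of -0.57, and Igf2 one of -0.62.

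Genes of proliferation and glycolysis differed little. None of the 22 S phase genes and none of the 22 G2 and M phase genes was 2-fold higher or lower, with median log2 ratios of -0.14 and 0.14. The 19 glycolysis genes counted also lay within 2-fold, with a median of 0.24, and their list summed to 10647 UPM in members and 9659 UPM in the other Meox1 cells. Of the list of cell cycle exit genes and D cyclins, Gadd45g (108 against 14.1 UPM) and Btg2 (32.1 against 5.23 UPM) were higher and Ccnd2 lower (159 against 336 UPM). Gadd45g is a stress sensor that is also active in the presomitic mesoderm, and Btg2 restrains division. Cdkn1a, an inhibitor of the cell cycle, had 1 UMI in members against 11.5 UPM.

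Marker lists of other cell types were carried in part by single cells. The neural list summed to 99.7 UPM in members and 30.4 UPM in the other Meox1 cells, and its most abundant gene was Tubb3 at 33.4 UPM. Of the genes that mark neural-marked cells, Sox1 had no UMI in members, Sox3 had 2 and Pax6 had 3. Since the rule excluded Sox2, such genes could be low through the choice of members. Irx3 had 12 UMIs in 8 members and Nkx6-1 had 8 in 5. A single cell held 56.0% of the Tubb3 UMIs, and without the neuronal and globin-rich cells Tubb3 stood at 2.35 UPM. The red blood list summed to 2284 against 659 UPM, with 5 of 6 counted genes higher, but 99.0% of the Hbb-y UMIs were in 1 cell, without which and without the neuronal cells Hbb-y stood at 12.5 UPM. The endothelial list summed to 32.8 UPM, led by Kdr and Emcn with 13 UMIs each, and 40 of its 49 UMIs were in the 2 endothelial-marked members. A single one of these held 11 of the 13 Emcn and 11 of the 12 Cdh5 UMIs, and without both the list stood at 6.22 UPM. Tubb3, Hbb-y and genes of the endothelial list were used to choose the cells left out, so these falls follow from the choice. The neural crest list summed to 61.5 UPM, led by Ets1. The lateral plate list summed to 36.1 UPM, led by Prrx1, which was at least 2-fold lower than in the other Meox1 cells, and the intermediate mesoderm list to 30.1 UPM, led by Osr1. The list of surface ectoderm and gut summed to 8.03 UPM, that of notochord to 3.34 UPM, all from T, and that of white blood to 1.34 UPM, below the 2.01 UPM that 3 counts give. The part of these cells in the ratios of other genes was not tested beyond the values given without these cells.

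Members differed among themselves in which marker carried them past the rule. Ripply2 without Cer1 was found in 28 cells (median 11864 UMIs), Cer1 without Ripply2 in 20 (median 18630), both in 14 and neither in 32, of which 9 were the cells with neuronal genes. The number with both depends on the UMIs required and on depth, since it was 5 when 2 UMIs of each were required and 3 after thinning to 5000 UMIs. The median marker sum was 12 UMIs in cells with Ripply2 alone and 4 in cells with Cer1 alone. The part of this sum in the differences below was not tested. Genes of different roles were higher in cells with Ripply2 alone. Hes7 had 21 UMIs in the 28 cells with Ripply2 alone, or 50.3 UPM. It had none in the 20 cells with Cer1 alone, where 3 counts give 8.51 UPM. Dll1 was at 86.2 against 11.4 UPM (log2 ratio 2.93, 1.45 to 4.88), Fgf18 at 275 against 88.0 UPM and Epha4 at 196 against 62.4 UPM. Arl4d, Wnt5a and Hoxd1 differed the same way, with log2 ratios of 3.12, 1.82 and 2.85. Hox genes differed in both directions, because Hoxb1 (1.34) was also higher with Ripply2 alone, and Hoxa7 (-1.24), Hoxb9 (-1.03), Hoxc9 (-1.14) and Hoxc8 (43.1 against 122 UPM) were higher with Cer1 alone. Hoxb2 had a log2 ratio of 0.98 and Hoxd8 of 1.28, but without the 1 cell richest in each gene, left out after seeing the data, the intervals included 0 (Hoxb2 0.76, -0.21 to 1.78, and Hoxd8 1.11, -0.14 to 2.50). Without the globin-rich and the endothelial-marked members, the interval of Hoxb2 also included 0 (0.64, -0.35 to 1.69). That of Hoxd8 then excluded 0 (1.95, 0.52 to 3.70). Efnb2, the ligand for Epha4, was at 47.9 UPM with Ripply2 alone and 105 UPM with Cer1 alone (log2 ratio -1.13, -1.99 to -0.31). Genes that were lower in members than in the other Meox1 cells were also among them. Nr2f1 was at 122 against 19.9 UPM (log2 ratio 2.62, 1.47 to 4.01), but 1 cell held 24 of its 51 UMIs, and without that cell, left out after seeing the data, the log2 ratio was 1.84 (0.61 to 3.29). Col2a1 was at 43.1 against 5.68 UPM and Id3, with 35 of 107 UMIs in 1 cell, at 256 against 116 UPM. Col3a1 had 12 UMIs in cells with Ripply2 alone, 6 of them in 1 cell, and none in cells with Cer1 alone. Snai2 had 7 UMIs against none, 3 of them in 1 cell, and without that cell the lower bound of its log2 ratio was -0.70. The sclerotome genes Pax1, with 1 UMI on each side, Sox9 (log2 ratio -0.24) and Twist1 (-0.14) had intervals that included 0.

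Tcf15 and Foxd1 were higher in cells with Cer1 alone, and the intervals of Tbx18 and Jag1 excluded 0 only with 1 cell of each included. Tcf15 was at 809 against 503 UPM, a log2 ratio of Ripply2 alone over Cer1 alone of -0.69 (-0.95 to -0.42). Foxd1, a forkhead factor of paraxial mesoderm, was at 179 against 43.1 UPM. Tbx18, which marks the front of each somite, was at 53.9 against 19.2 UPM, and without the cell that held 4 of its 19 UMIs with Cer1 alone the log2 ratio was -1.21 with an interval that included 0 (-2.66 to 0.12). Jag1, a Notch ligand that endothelial cells also use, had 14 UMIs against 2 (log2 ratio -3.05, -6.23 to -0.93). A single cell held 8 of the 14, and without it the log2 ratio was -1.99 with an interval that included 0 (-5.33 to 0.50). The intervals of Meox1, Notch1 and Ifitm1 included 0, with log2 ratios of 0.01, 0.24 and 0.01. The cell rich in globin was one of those with Ripply2 alone, and without it Dll1 (3.13), Fgf18 (1.84), Tcf15 (-0.51) and Tbx18 (-1.29) kept their direction, while Notch1 was at 0.41 (0.02 to 0.79). Both endothelial-marked members held Cer1 alone, and the endothelial list summed to 114 UPM in cells with Cer1 alone and 14.4 UPM in those with Ripply2 alone. Without these 2 members, which held no Jag1, the list had no UMI in the other 18 cells with Cer1 alone. With the globin-rich cell left out as well, the log2 ratios were -3.06 for Jag1, -0.64 for Tcf15, -2.02 for Foxd1, 3.33 for Dll1, 2.37 for Nr2f1 and 0.36 for Notch1 (-0.04 to 0.76). Other lists differed between cells with Ripply2 alone and with Cer1 alone. Intermediate mesoderm summed to 69.5 against 8.51 UPM and lateral plate to 43.1 against 5.68 UPM, but neural crest to 28.7 against 59.6 UPM. Osr1 had 15 UMIs against none, and without 1 cell with 4 of them its log2 ratio had a lower bound of 1.12. Wt1 had 11 UMIs against 1, 10 of them in 1 cell. The part of these lists in other differences was not tested. The 14 cells with both markers held Hes7 at 84.9 UPM and Tcf15 at 739 UPM.

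**Figure D5:**
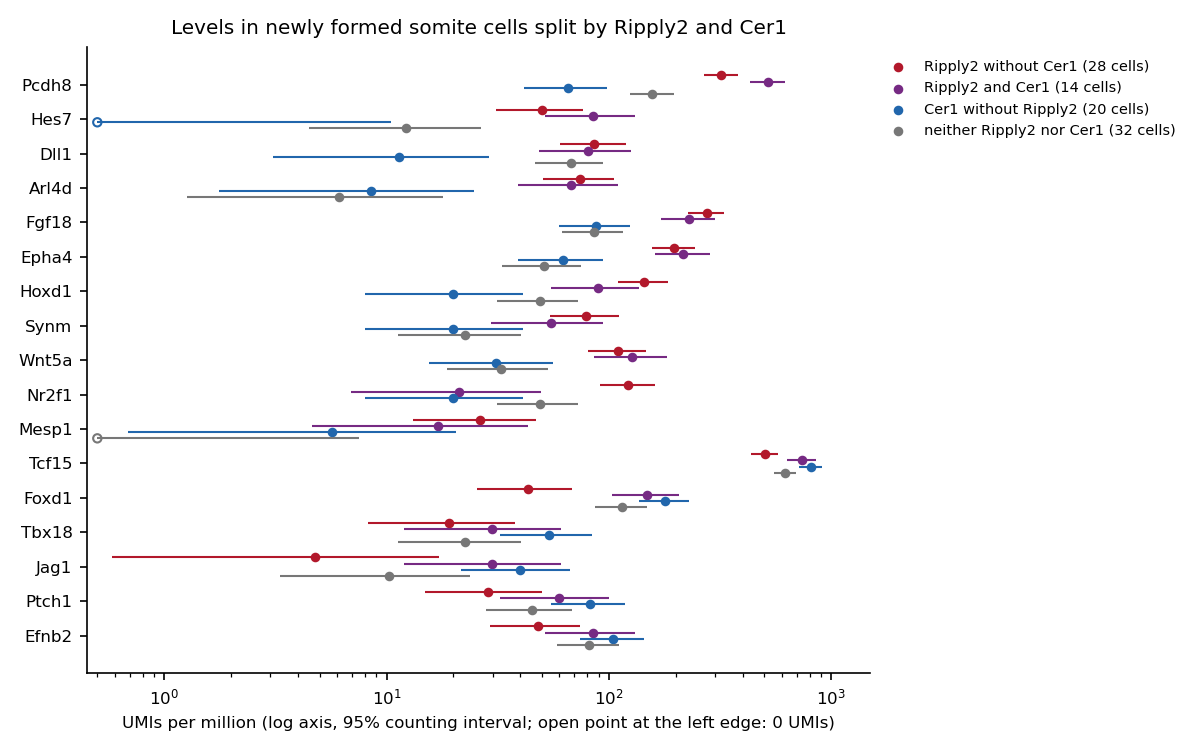
Levels of 17 genes in newly formed somite cells split by detection of Ripply2 and Cer1, in UPM on a log axis, with 95% counting intervals cut at the left edge and open points for 0 UMIs. Hes7, Dll1, Arl4d, Fgf18 and Epha4 are higher in cells with Ripply2 alone (red) than with Cer1 alone (blue), and Tcf15 and Foxd1 are lower. Tbx18 and Jag1 also lie lower, but without 1 cell each their intervals of the difference include 0.

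Hes7, Tbx6 or Mesp2 was found in 31 members, and 25 of these had at least 6 marker UMIs, as had 48 of all 94 members. The rule used the marker UMIs, so these numbers are a description only. Only 2 cells held all 3 genes. The 12 members with Tbx6 had a median marker sum of 23 and held Ripply2 at 735 UPM, Pcdh8 at 645 UPM and Hes7 at 113 UPM. None of the 12 held Tbx18 or Uncx, the genes of the front and the rear of a formed somite. Across all 94 members, 27 held Tbx18, 7 held Uncx and none held both. Neither gene had more than 4 UMIs in a cell. With so few cells and UMIs, a lack of overlap cannot show that these genes exclude each other or Tbx6, and this was not tested. The 7 members with Uncx held 30 of the 78 Nrarp UMIs, 272 UPM, against 24.8 UPM in the 27 members with Tbx18, and Notch1 was at 544 and 234 UPM. With 110336 UMIs in the 7 cells these levels rest on few cells of 1 library.

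At E11.5 the same rule found 18 of 9595 cells kept (0.188%, exact interval 0.111% to 0.296%), and their genes went against the label. Of the 18, 14 held at least 2 UMIs of the 4 neuronal genes, and Tcf15 was present in 9. Ripply2 had no UMI (exact upper limit 11.6 UPM), Dll3 stood at 166 UPM and Pcdh8 at 75.4 UPM. Mfng, a relative of Lfng, was at 75.4 UPM against 1.54 UPM in the other Meox1 cells of that stage. The marker sum of these cells had a median of 3 and a highest value of 8, against 6 and 61 at E9.5. The 4 remaining E11.5 cells were too few to describe.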

How the data were processed

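Single cells of inter-limb somites were sequenced with 10x Genomics chemistry, 1 library at each of 2 stages from 3 pooled embryos. According to the submitters' processing notes, Cell Ranger 3.0.1 was used. The authors deposited raw UMI counts per gene and barcode, aligned to mm10. These values were not normalized, and cells that the study later filtered out were still present. Cells with 200 to 6499 genes and under 15% mitochondrial UMIs were kept, as in the study, which removed 270 of 10121 barcodes at E9.5 and 572 of 10167 at E11.5. Kept cells of the earlier stage held 139643320 UMIs and those of the later stage 129754245.

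Counts were summed over classes of cells. Exact 95% intervals of Poisson counts, of ratios of 2 Poisson counts and of binomial shares (Clopper-Pearson) were computed. With 1 library per stage and cells that are not replicates, no test was made. A gene was counted from a mean of 10 UPM over both classes and called at 2-fold. Shares were also computed after thinning each cell to 5000 UMIs. Scrublet, run through scanpy 1.11.5 to find doublets, called 5.32% of E9.5 barcodes and 5 of the 94 members. It set no usable threshold at E11.5, and doublets were removed only in an alternative. Gene positions are of GENCODE M21 on GRCm38. Promoters are from RefSeq.

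Genes were named by a rule: the 8 genes used to choose members, the genes of 26 lists and all Hox genes, and the 15 highest and 15 lowest other genes by the bound of the ratio's interval nearest to 1-fold. Some genes of the lists are not reported here by name. Members and lists were chosen with earlier results of these data known. The calculation was tested on simulated Poisson counts for members against the other Meox1 cells, for 7457 genes with 200 changed. In these, 95.5% of intervals held the true ratio, 99.0% of changed genes passed 2-fold and 0.303% of the others did. The intervals assume Poisson counts, so this checks the arithmetic only. Variation between cells was not simulated, and these percentages need not hold for the measured counts. Python 3.11.15, numpy 2.4.6, scipy 1.17.1, pandas 2.3.3 and matplotlib 3.10.9 were used.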

Additional observations from a re-analysis of the deposited data

How the results depend on the processing

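No paired analysis was possible because 1 library was made per stage, and for the same reason no replicate could be left out. Of 2028 values of 157 single genes under the alternatives, 1791 stayed within the counting interval of the main value and 228 moved outside it. A further 9 changed sign where that interval excluded 0. Changes of sign where it included 0 were not counted among the 9. The numbers of genes called depended on the floor and on depth. Beside 165 genes at least 2-fold higher and 153 genes at least 2-fold lower, a minimum of 2 UPM gave 440 and 641, levels after thinning to 5000 UMIs gave 296 and 319, and a 3-fold limit gave 87 and 54. Lower genes numbered 70 with a minimum of 20 UPM, 99 with a marker sum of at least 2 and 248 with the rule applied after thinning. Segmentation clock genes that were higher numbered 2 at 20 UPM and 8 at 2 UPM, and border genes 7 at 2 UPM. Notch pathway genes that were higher numbered 5 with a marker sum of at least 5, after thinning and at 2 UPM. A marker sum of at least 5 found 57 cells in the E9.5 and 6 in the E11.5 library, where the rule after thinning found 54 and 5. A marker sum of at least 2 found 32 cells at E11.5. Ripply2 and Cer1 occurred together in 5 members when 2 UMIs were required of each and in 3 after thinning. In alternatives chosen after seeing the data, leaving out neuronal and globin-rich cells gave 5 higher early somite genes and 4 cells at E11.5, and the other Meox1 cells with Pax3 and without Myf5 gave 3 lower sclerotome genes. The 9 log2 ratios that changed sign where the main interval excluded 0 included those of Snai1 (0.057 with a marker sum of at least 5 and 0.15 against the cells with Pax3). Those of Sim1 were -0.25 after thinning and -0.033 against the cells with Pax3. The others were Spry2 (-0.27) and Hoxb9 (-0.025) with the rule after thinning, and Ptch1 (0.23), Cdkn1c (0.33) and Has2 (0.24) against the cells with Pax3. The causes were not tested.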

Other observations

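Further cells carried the markers but failed the rule on Sox2. A total of 87 E9.5 cells met every condition except that they held Sox2, a neural progenitor gene, with a median of 20271 UMIs, and Scrublet called 24 of them doublets. Their Neurog2 level was 145 UPM, their Tcf15 level 107 UPM and their Ripply2 level 10.8 UPM, whereas the members stood at 292 UPM of Ripply2. A further 4 cells met every condition except that they held Myf5, and 25 held the markers with neither Pax3 nor Meox1, with a median of 6615 UMIs and a median of 21 summed UMIs of Neurog2, Tubb3, Elavl3 and Dcx.

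Olig2, a factor of motor neuron and oligodendrocyte progenitors, had 11 UMIs in 8 members, at most 2 in a cell. It stood at 16.8 UPM in members with Ripply2 alone and at 17.0 UPM in those with Ripply2 and Cer1, and had no UMI in the 20 members with Cer1 alone, in the 32 with neither or in the 9 with neuronal genes. Its level in neural-marked cells was 57.1 UPM and in the other Meox1 cells 1.03 UPM.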
